A study of Mus musculus with 72 samples.

Results

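Olfactory epithelium of mouse pups at postnatal day 3 (P3) was compared between the ectopicFzd1 line and its control line, both given doxycycline (DOX) from birth (P0) to P3. The ectopicFzd1 mice carried Omp-IRES-tTA together with tetO-Fzd1-IRES-tdTomato, and the control mice carried Omp-IRES-tTA without the tetO construct. The 6 libraries, 3 per line, were chosen by their titles from 72 libraries in 25 groups, which also hold an Fzd1 knockout line, other ages and mice without DOX. Both lines thus shared the Omp-driven activator and the drug, and differed by the tetO construct. No group carried a tetO construct without Fzd1, so Fzd1 and tdTomato cannot be told apart, and the P3 libraries without DOX (ectopicFzd1, 3 libraries; control, 2 libraries) show the same lines with the activator free to act. The titles of the 3 ectopicFzd1 libraries carry 1 shared ID, whereas the 3 control titles carry separate IDs from another ID series, so line and ID series cannot be told apart. Another ID is shared by an ectopicFzd1 library with DOX at P10 and an ectopicFzd1 library with DOX at P14. A shared ID thus does not settle which libraries came from the same animal. The labels do not say that libraries of a group are separate animals, so the spread behind the p-values may be technical.

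The tTA protein activates genes placed behind a tetO sequence, and DOX keeps it from binding there. Omp encodes olfactory marker protein of mature olfactory sensory neurons, so Omp-IRES-tTA places the activator in those neurons. Fzd1 encodes a Frizzled receptor for secreted Wnt proteins. The epithelium also holds basal stem cells, sustentacular support cells and resident macrophages, and macrophages clear the debris of neurons that turn over throughout life. In a whole tissue, fewer cells of a type and less RNA per cell cannot be told apart.

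Gene counts per library ranged from 2.74 to 4.58 M out of 12.7 to 16.6 M reads, against 1.31 to 8.79 M over all 72 libraries. Predicted genes of the Gm10800 type, which resemble satellite repeats, took 5.99%, 12.3% and 5.16% of gene counts in the ectopicFzd1 libraries and 14%, 10.8% and 6.90% in the control libraries. Pairs of ectopicFzd1 libraries differed more than sampling noise allows, with a chi-square per gene of 1.6, 2.52 and 1.93 where sampling alone gives about 1, so no file is a copy of another. Pairs within groups of the series had a median of 2.07, and these values do not show whether libraries came from separate animals. They were counted as 3 samples, as the labels list them. The Y-linked gene Ddx3y, in counts scaled to the library total (CPM), was at 53.6, 0 and 0 CPM in ectopicFzd1 replicates 1, 2 and 3, and 0.272, 0.845 and 0.199 CPM in the control replicates. Xist, made from the inactive X chromosome, was at 3.93, 883 and 1060 CPM in ectopicFzd1 and at 1095, 791 and 934 CPM in control. EctopicFzd1 replicate 1 therefore was not from the same animal as replicates 2 and 3, and whether replicates 2 and 3 were from 1 animal was not tested. By these genes ectopicFzd1 replicate 1 was male, and ectopicFzd1 replicates 2 and 3 and all control replicates were female. Sex was thus uneven between the lines, and its part in the differences was not tested separately. All 20 markers of mature olfactory neurons were detected, with a summed level of 925 to 969 TPM, which is also scaled for gene length, in ectopicFzd1 and 920 to 978 TPM in control. The labelled tissue thus carried its defining markers at overlapping levels in the 2 lines.

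The 4 genes that stayed below the threshold in every fit without 1 of the 6 libraries were Spp1, Clec7a, Cd68 and Csf1, all lower in ectopicFzd1. Their promoter windows are printed because the genes moved together. Each runs from 250 bases before the RefSeq start to 50 bases after it (300 bases, GRCm38.p6): Spp1 at chr5:104434861-104435160 on the plus strand, Clec7a at chr6:129472730-129473029, Cd68 at chr11:69666121-69666420 and Csf1 at chr3:107760420-107760719, these 3 on the minus strand. Letters are 5′ to 3′ along the gene, and capitals mark matches on either strand to TGANTCA (AP-1), GAGGAAGT (ETS) or CACGTG (E-box).
Spp1: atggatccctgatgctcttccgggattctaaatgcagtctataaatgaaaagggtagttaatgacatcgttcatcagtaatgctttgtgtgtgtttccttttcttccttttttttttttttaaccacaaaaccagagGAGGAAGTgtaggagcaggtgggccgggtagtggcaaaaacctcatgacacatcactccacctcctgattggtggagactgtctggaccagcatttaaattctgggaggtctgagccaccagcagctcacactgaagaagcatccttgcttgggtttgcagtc
Clec7a: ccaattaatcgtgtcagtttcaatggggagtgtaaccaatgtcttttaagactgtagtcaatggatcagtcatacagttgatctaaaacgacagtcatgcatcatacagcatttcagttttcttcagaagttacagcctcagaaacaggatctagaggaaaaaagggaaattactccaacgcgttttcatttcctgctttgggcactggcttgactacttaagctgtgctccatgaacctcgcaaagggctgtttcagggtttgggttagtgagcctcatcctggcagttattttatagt
Cd68: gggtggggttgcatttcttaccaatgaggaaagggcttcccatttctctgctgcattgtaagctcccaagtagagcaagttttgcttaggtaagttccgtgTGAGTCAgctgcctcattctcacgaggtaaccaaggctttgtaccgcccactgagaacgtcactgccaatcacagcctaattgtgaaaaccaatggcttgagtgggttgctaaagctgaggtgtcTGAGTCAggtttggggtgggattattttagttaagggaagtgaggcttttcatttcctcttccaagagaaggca
Csf1: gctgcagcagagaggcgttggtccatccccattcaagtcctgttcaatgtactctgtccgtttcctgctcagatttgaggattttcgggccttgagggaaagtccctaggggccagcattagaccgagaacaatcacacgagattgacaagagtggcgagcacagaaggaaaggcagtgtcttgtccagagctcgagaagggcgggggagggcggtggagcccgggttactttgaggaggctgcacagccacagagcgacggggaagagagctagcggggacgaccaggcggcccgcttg
Spp1 held 1 match, the ETS letters from base 138, and Cd68 held 2 AP-1 matches, from bases 102 and 227, which overlap no other match. In the Clec7a and Csf1 windows these letters do not occur, and no motif was shared by the 4 windows. Of all 32851 promoter windows of this length, 7.81% held TGANTCA, 3.2% held GAGGAAGT and 7.15% held CACGTG. The G and C content was 45.3% in Spp1, 42% in Clec7a, 47.7% in Cd68 and 58.7% in Csf1. A match is a description of the letters and not of a bound site.

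Fzd1 (ENSMUSG00000044674, mm10 chromosome 5, 4753839 to 4758035) was measured first, as a check of the labels and of the DOX treatment. It was at 36.1, 39.1 and 36.8 CPM in ectopicFzd1, against 28.6, 21.5 and 33.6 CPM in control. The ectopicFzd1 libraries all lay above the control libraries, but the log2 fold change of 0.42 (SE 0.45) did not pass the test (edgeR adjusted p = 0.962). On the log2(CPM + 1) scale the groups differed by 0.43 with an exact permutation p of 0.1, 2-sided, the smallest that 3 against 3 samples allow. On the log2(TPM + 1) scale they differed by 0.38, with an exact permutation p of 0.2, 2-sided. Without DOX at P3, ectopicFzd1 averaged 559 ± 475 CPM (SD, n = 3) and control 41.5 ± 2.53 CPM (SD, n = 2), a log2 fold change of 3.76 (edgeR adjusted p = 3.93e-05). The library labelled ectopicFzd1 without DOX at P3 replicate 3 was at 43.0 CPM and so went against its label. Without it, the log2 fold change without DOX was 4.30 (edgeR adjusted p = 1.87e-11). The ectopic effect on Fzd1 with DOX minus that without DOX was −3.34 on the log2 scale (edgeR adjusted p = 0.0124), and −3.88 without that library (edgeR adjusted p = 5.27e-07).

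Omp (chromosome 7, 98143359 to 98145502) was at 27.3, 26.6 and 30.5 CPM in ectopicFzd1 and at 36.2, 30.2 and 23.8 CPM in control. The groups overlapped, and the log2 fold change of −0.09 (SE 0.37) did not pass the test (edgeR adjusted p = 1). Without control replicate 1 the value was 0.06, also not past the threshold. At the other ages with DOX the control line had far more Omp: 25 CPM in ectopicFzd1 against 222 CPM in control at P1, 29.7 against 546 CPM at P7, 34.8 against 881 CPM at P10 and 56.5 against 1296 CPM at P14, as group means. The log2 fold changes there were −3.16, −4.20, −4.66 and −4.52, all past the threshold. The ectopic effect at P3 minus the mean effect at P1, P7, P10 and P14 was 4.05 for Omp (edgeR adjusted p = 5.99e-09). Control libraries at P3 with DOX therefore differed from the other controls with DOX in Omp, and their level of 30.1 ± 6.17 CPM (SD, n = 3) lay close to the 27.9 CPM of control without DOX at P3. The part of this difference in other genes was not tested, and every comparison of P3 with other ages below carries it. The labels name Omp-IRES-tTA in every control group without its number of copies, so age and a difference in genotype among the controls cannot be told apart. The pseudogene Gm15772, given below, also differed between control with DOX at P3 and control with DOX at the other ages. The cause was not tested.

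With DOX at P3, 40 of 22144 genes tested passed the threshold of 0.05 (0.181%), of which 11 were higher (0.0497%) and 29 lower (0.131%) in ectopicFzd1. The median log2 fold change of all genes was 0.01. At an unadjusted p below 0.05, 845 genes were higher and 816 lower. Of the called genes, 39 had no overlap between the 3 ectopicFzd1 and the 3 control libraries, against 13.4% of all genes tested. The exception was Chil4. All 40 kept their direction in every fit without 1 library, which follows largely from how they were chosen. Of the 40, 20, 16 and 10 were still called without control replicates 1, 2 and 3. Without ectopicFzd1 replicates 1, 2 and 3, 8, 9 and 4 of the 40 were. The number of all genes called, within or outside the 40, ranged from 6 without ectopicFzd1 replicate 3 to 29 without control replicate 1. It was 16 and 10 without control replicates 2 and 3, and 11 and 9 without ectopicFzd1 replicates 1 and 2. With ectopicFzd1 replicates 2 and 3, which may be 1 animal, summed to 1 library, 6 of the 40 were still called (Spp1, Clec7a, Cd68, Csf1, Gpnmb and Kif26a), and with all 3 summed 5 were (Spp1, Clec7a, Cd68, Csf1 and Adamdec1). The other calls below thus rest on counting the 3 ectopicFzd1 libraries separately.

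The 4 genes with printed promoters had the 4 smallest p-values. Spp1 (ENSMUSG00000029304, chromosome 5, 104435118 to 104441050) encodes osteopontin, a secreted phosphoprotein made by activated macrophages and by bone cells. It was at 4.81, 14.1 and 5.67 CPM in ectopicFzd1 and at 86.8, 163 and 39.1 CPM in control. All ectopicFzd1 libraries lay below all control libraries, with a log2 fold change of −3.64 (SE 0.45, edgeR adjusted p = 8.84e-07). Clec7a (ENSMUSG00000079293, chromosome 6, 129461591 to 129472779) encodes a receptor for fungal glucans on myeloid cells and is listed by GENCODE as a polymorphic pseudogene. Its levels were 1.97, 1.28 and 1.17 CPM in ectopicFzd1 and 10.3, 16.1 and 8.54 CPM in control, without overlap. The log2 fold change was −2.95 (SE 0.42, edgeR adjusted p = 2.69e-05). Its ectopicFzd1 levels were low, and the value was −1.94 by limma on log2(TPM + 1) and −3.03 on log2(TPM + 0.1).

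Cd68 (ENSMUSG00000018774, chromosome 11, 69664213 to 69666153) encodes a lysosomal glycoprotein used as a macrophage marker. It was at 3.72, 4.48 and 3.72 CPM in ectopicFzd1 against 13.1, 12.7 and 8.94 CPM in control, without overlap, with a log2 fold change of −1.54 (SE 0.24, edgeR adjusted p = 0.000111). Csf1 (ENSMUSG00000014599, chromosome 3, 107741048 to 107760469) encodes the growth factor that macrophages need to survive. It stood at 10.5, 8.32 and 7.24 CPM in ectopicFzd1 and at 21.8, 17.5 and 24.2 CPM in control. Its log2 fold change was −1.28 (SE 0.20, edgeR adjusted p = 0.000108). Gpnmb, a transmembrane glycoprotein of phagocytes, was at 1.31, 4.48 and 2.15 CPM in ectopicFzd1 and at 13.9, 22.8 and 7.35 CPM in control. It fell by 2.53 on the log2 scale (SE 0.46, edgeR adjusted p = 0.00298) and was called in 3 of the 6 fits without 1 library.

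**Figure D1:**
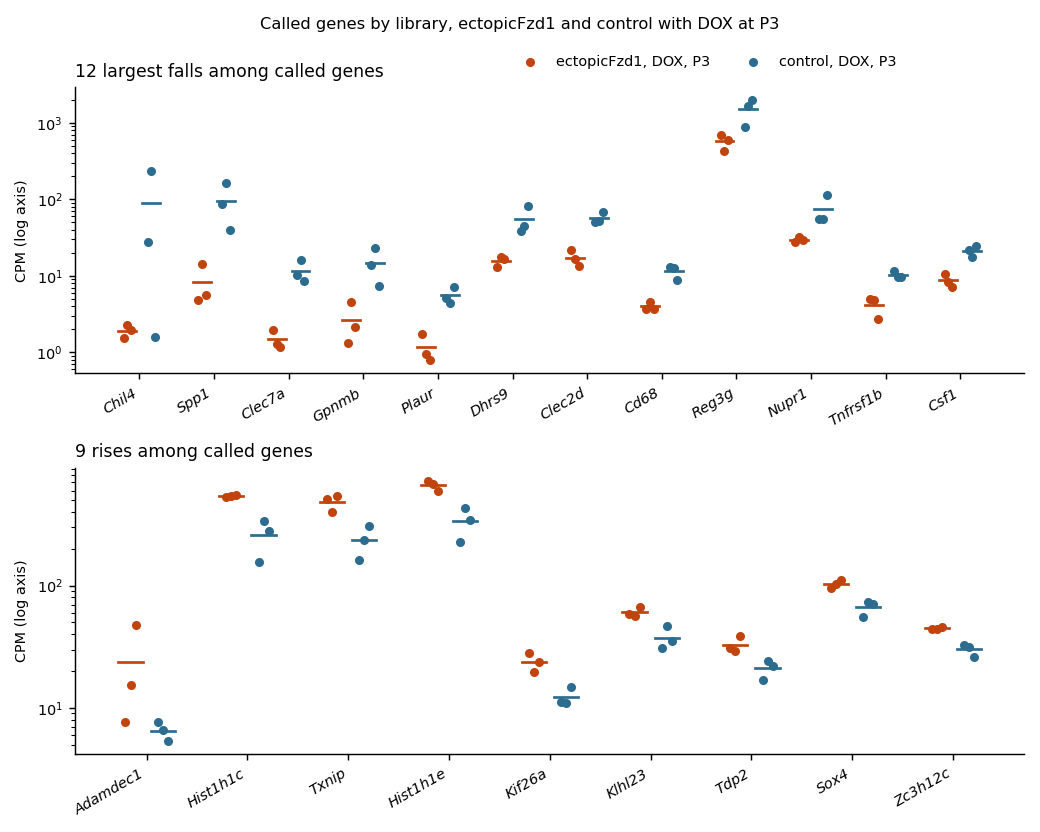
CPM on log axes in each library with DOX at P3, ectopicFzd1 (red) left of control (blue), for the 12 largest falls and the 9 rises that the naming rule took; short lines are means. Groups do not overlap in any gene but Chil4, where control replicate 3 lies at 1.59 CPM, and Adamdec1 ranges from 7.65 to 47.9 CPM in ectopicFzd1.

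The other named falls passed the threshold in 3 or fewer of the 6 fits without 1 library. Chil4, a secreted chitinase-like protein, was at 1.53, 2.24 and 1.96 CPM in ectopicFzd1, against 28.0, 236 and 1.59 CPM in control. Control replicate 3 was within the ectopicFzd1 range and the control libraries spanned a wide range. The log2 fold change was −5.55 (SE 1.32, edgeR adjusted p = 0.0488), and −2.86 without control replicate 2, no longer past the threshold. Reg3g, a secreted lectin that kills bacteria, was at 695, 433 and 603 CPM in ectopicFzd1 and 889, 1673 and 1962 CPM in control, with a log2 fold change of −1.39 (SE 0.30, edgeR adjusted p = 0.0299). The groups did not overlap. Plaur, the receptor of urokinase on leukocytes, was at 1.75, 0.96 and 0.783 CPM in ectopicFzd1 and at 5.17, 4.44 and 7.15 CPM in control, and fell by 2.23 (SE 0.52). At these low levels the value was −1.33 by limma on log2(TPM + 1).

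Clec2d, a lectin recognised by a receptor of natural killer cells, had a mean of 17.3 ± 4.10 CPM in ectopicFzd1 and 56.8 ± 10.4 CPM in control (SD, n = 3 each), a log2 fold change of −1.72. Tnfrsf1b, a receptor for tumour necrosis factor, averaged 4.19 ± 1.26 CPM in ectopicFzd1 and 10.2 ± 1.26 CPM in control (SD, n = 3 each), a log2 fold change of −1.30. Nupr1, a small nuclear protein induced by stress, was at 28.0, 32.0 and 29.4 CPM in ectopicFzd1, against 55, 54.9 and 115 CPM in control, where replicate 3 was highest. Dhrs9, a retinol dehydrogenase, was at 13.1, 17.6 and 16.4 CPM in ectopicFzd1 and at 38.1, 45 and 81.5 CPM in control, where replicate 3 was again highest. Their log2 fold changes were −1.35 and −1.82. Other called falls, which the naming rule did not take, included Socs3 (an inhibitor of cytokine signalling, −1.16), Mpeg1 (a pore-forming protein of macrophages, −0.88), Plek (pleckstrin of blood cells, −0.87), Lgals3 (a galectin, −1.17) and Krt14 (a keratin of basal cells, −1.10). The others with ordinary symbols were Slfn2 (−1.24), Bhlhe40 (a transcription factor, −1.18), Muc1 (a mucin, −1.02), Lgals3bp (−0.87), Eme2 (−0.80), Sorcs2 (−0.79) and Snx10 (a sorting nexin, −0.60). All of these were chosen after their values were seen. In the fits without 1 library, Tnfrsf1b and Plaur passed the threshold in 0 of 6.

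The rises were fewer and smaller. Adamdec1, a secreted metalloprotease, was at 7.65, 15.4 and 47.9 CPM in ectopicFzd1 and at 7.62, 6.55 and 5.37 CPM in control, so the ectopicFzd1 libraries spread more widely than the groups differed. Its log2 fold change of 1.91 (SE 0.40, edgeR adjusted p = 0.0231) was 0.78 without ectopicFzd1 replicate 3, not past the threshold. The linker histone gene Hist1h1c, whose protein packs chromatin, was at 527, 544 and 556 CPM in ectopicFzd1 and at 158, 336 and 279 CPM in control. Hist1h1e, another linker histone gene, was at 718, 676 and 593 CPM in ectopicFzd1 and at 227, 436 and 346 CPM in control. Control replicate 1 was lowest in both genes, and their log2 fold changes were 1.07 (SE 0.24) and 0.98 (SE 0.23). The libraries were made from total RNA, which also holds transcripts without a poly(A) tail.

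Txnip, an inhibitor of thioredoxin that responds to glucose, was at 507, 397 and 540 CPM in ectopicFzd1, against 161, 235 and 309 CPM in control, a log2 fold change of 1.03 (SE 0.24). Sox4, a transcription factor of neural progenitors, was at 95.7, 104 and 112 CPM in ectopicFzd1 and at 55.5, 73.1 and 70.3 CPM in control, a log2 fold change of 0.64 (SE 0.14). Kif26a, a kinesin-family gene, averaged 23.8 ± 4.23 CPM in ectopicFzd1 and 12.3 ± 2.22 CPM in control (SD, n = 3 each), a rise of 0.95 (SE 0.19). Klhl23 rose by 0.69, Tdp2, which removes topoisomerase adducts from DNA ends, by 0.64 and Zc3h12c by 0.57. Sox4 and Zc3h12c passed the threshold in 0 of 6 fits without 1 library. The ectopicFzd1 mean with DOX at P3 was the highest of the 25 group means for 6 of the 11 rises, Sox4 among them. For the falls it was the lowest of the 25 in 8 of 29, and the control mean with DOX at P3 was the highest in 7 of 29, among them Clec7a, Csf1 and Gpnmb. These genes were called because the same 2 means differed, so such ranks follow in part from the choice. The share of all genes with such ranks was not computed.

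The remaining called genes had Gm symbols of predicted genes, 5 lower and 2 higher. The processed pseudogene Gm15772 was at 0.437, 0 and 0.587 CPM in ectopicFzd1 and at 63.7, 189 and 72.7 CPM in control. It was chosen after its values were seen, and no fold is given because ectopicFzd1 held 2, 0 and 3 counts. Within control without DOX at P3 it also split, at 1.4 and 106 CPM, so it varies between libraries of a line. Its means in control with DOX were 0.715 CPM at P1, 0.282 CPM at P7, 0.49 CPM at P10 and 0.992 CPM at P14. At P3 that mean was 109 CPM (n = 3 at each age). Near-identical copies of such pseudogenes can share reads with their parent gene, and the counting here cannot separate them. The ribosomal protein gene Rpl26, chosen after its values were seen, went the other way. It averaged 248 ± 15.1 CPM in ectopicFzd1 and 74.6 ± 50.7 CPM in control (SD, n = 3 each). Its log2 fold change of 1.73 was not called (edgeR adjusted p = 0.0779). Whether Rpl26 and Gm15772 share reads was not tested.

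The lists of cell type markers and pathways give counts against the 0.131% of genes called lower and 0.0497% called higher. Counts at an unadjusted p below 0.05 stand against 3.68% of all genes lower and 3.82% higher. Of 15 macrophage genes tested, all had a log2 fold change below 0, with a median of −0.56 against 0.01 over all genes, but only Cd68 was called. At an unadjusted p below 0.05 another 4 were lower, Csf1r, Ctss, Laptm5 and Lyz2, with values of −0.53, −0.80, −0.70 and −0.80. The summed macrophage level was 155, 90.3 and 99.6 TPM in ectopicFzd1 and 162, 163 and 214 TPM in control, without overlap.

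Neutrophil genes had a median of −1.32 over 9 tested. None was called by edgeR, 4 were lower at an unadjusted p below 0.05 (S100a8 −1.51, S100a9 −1.32, Ngp −2.52, Ltf −1.86), and DESeq2 called 1. Summed levels were 149, 121 and 118 TPM in ectopicFzd1 and 290, 256 and 626 TPM in control, with control replicate 3 far above the others, and Elane was at 0 in all 6 libraries. Horizontal basal cell genes, the reserve stem cells of the epithelium, had a median of −0.63 over 10 tested, with Krt14 called and Icam1 at −1.29, Krt15 at −1.20 and Krt5 at −0.77, which were lower at an unadjusted p only. Their summed level was 117, 105 and 80.2 TPM in ectopicFzd1 and 119, 97.4 and 241 TPM in control, and the median without control replicate 3 was −0.32. Interferon response genes had a median of −0.70 over 15 tested, with none called by edgeR or DESeq2 and 7 lower at an unadjusted p below 0.05, among them Ifit3 (−1.51), Ifit1 (−1.19) and Mx1 (−1.17).

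Erythroid genes had a median of −0.96 over 9 tested, none called by edgeR or DESeq2 and 3 lower at an unadjusted p below 0.05. Their summed level was 338, 312 and 189 TPM in ectopicFzd1 and 332, 383 and 950 TPM in control, and the median without control replicate 3 was −0.45. Control replicate 3 thus held the highest level of the blood, neutrophil and basal cell lists alike. It was also highest in other lists, among them macrophage (214 TPM), respiratory ciliated cell (477 TPM), fibroblast (714 TPM) and keratinised epithelium (76.4 TPM). In some lists it was not, such as bone, at 67.4 TPM against 73.6 and 96.6 TPM in control replicates 1 and 2. Whether blood content of the tissue moves the falls was not tested. Spp1, Clec7a, Cd68 and Csf1 were still called without control replicate 3. They were picked for being called in every such fit, so this is no test of blood content.

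**Figure D2:**
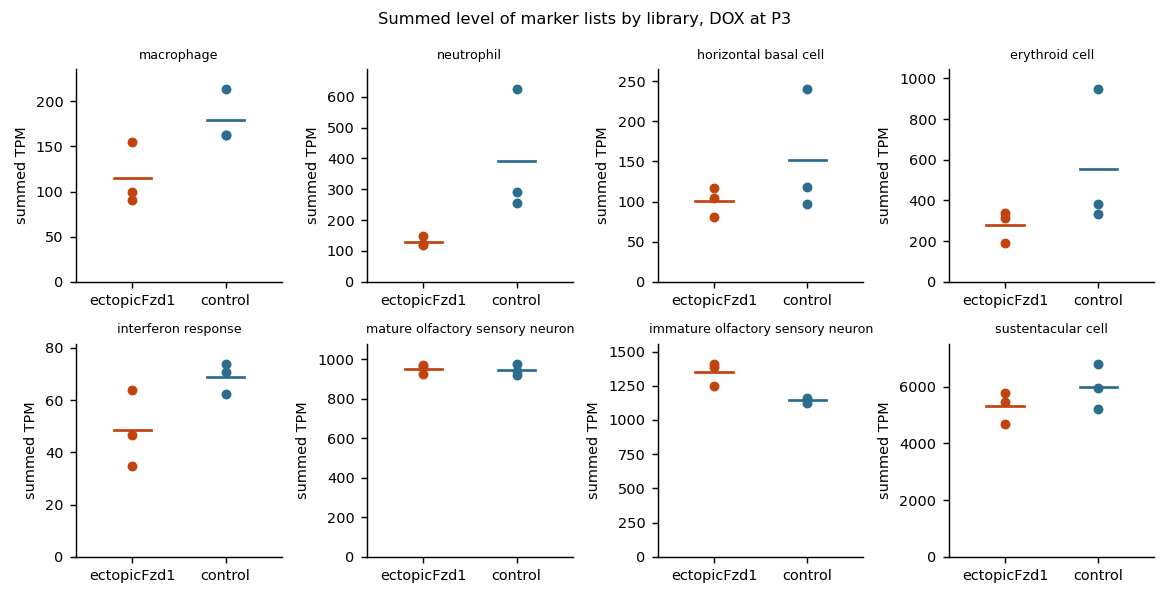
Summed TPM of 8 marker lists in each library with DOX at P3, ectopicFzd1 (red) left of control (blue); short lines are means and all axes start at 0. Macrophage and neutrophil sums do not overlap, while mature neuron sums lie at 925 to 969 TPM in ectopicFzd1 and 920 to 978 TPM in control.

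Genes of Wnt signalling, the pathway Fzd1 belongs to, were not called. The lists of 15 Wnt receptors and co-receptors (median 0.13), 10 Wnt ligands (−0.08), 14 secreted Wnt modulators (−0.04), 13 beta-catenin targets (−0.14) and 14 planar cell polarity genes (0.01) held 0 genes called by edgeR, DESeq2 or limma on log2 TPM. At an unadjusted p below 0.05 there were 3, 1, 2, 0 and 3 genes, where 3.82% of all genes were higher and 3.68% lower. By direction, higher and then lower, the lists held 1 and 2, 0 and 1, 0 and 2, 0 and 0, and 2 and 1. Among the receptors, Fzd2 was at 0.43, Fzd4 at −0.35 and Lrp5 at −0.38.

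Odorant receptor genes carried no called change with DOX at P3. Of 978 tested, 0 were called by edgeR and 0 by DESeq2, 35 were higher (3.58%, against 3.82% of all genes) and 4 lower (0.409%, against 3.68%) at an unadjusted p below 0.05, and limma on log2(TPM + 1) called 1. Their median log2 fold change was 0.21, with 666 above 0. They took 0.296 ± 0.0442% of gene counts in ectopicFzd1 and 0.259 ± 0.0391% in control (SD, n = 3 each), with an exact permutation p of 0.3, 2-sided. Without DOX at P3 the median of the same 978 genes was −0.94, and they took 0.120%, 0.0645% and 0.263% of gene counts in ectopicFzd1, the last in the library that went against its label, and 0.285% and 0.241% in control. The ectopic effect with DOX minus that without DOX was called for 53 genes (0.239%), 31 higher (0.14%) and 22 lower (0.0993%), of which 20 of the higher and 0 of the lower were odorant receptor genes. Their median difference was 1.17 against 0.05 over all genes. Without the library against its label, the number of genes called for this difference was 231, but it was 3 without ectopicFzd1 without DOX replicate 2, 4 and 8 without control without DOX replicates 1 and 2, 4 and 21 without ectopicFzd1 with DOX replicates 3 and 2, 20 without control with DOX replicate 3 and 307 without ectopicFzd1 without DOX replicate 1. A fit of only the 4 groups compared called 0, with all 53 at an unadjusted p below 0.05 there.

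**Figure D3:**
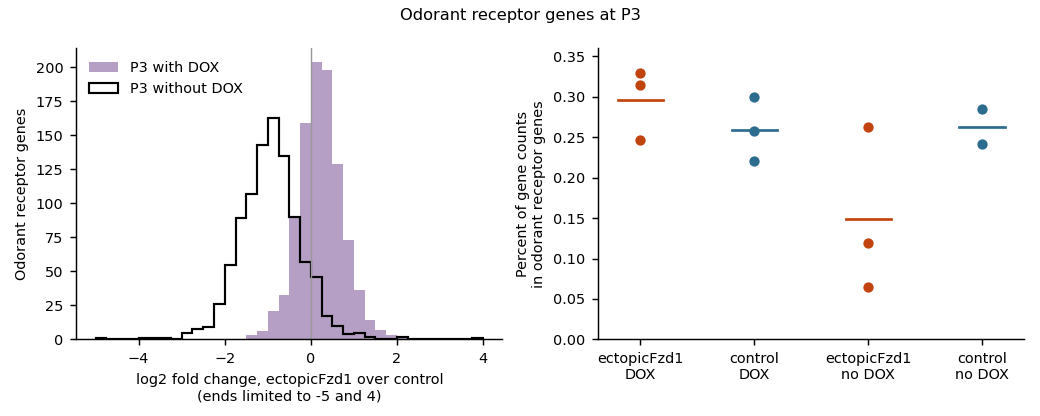
Left, number of odorant receptor genes by log2 fold change of ectopicFzd1 over control at P3, with DOX (filled) and without DOX (outline), 978 genes each; right, percent of gene counts in these genes per library, lines being means. The distribution with DOX centres at 0.21 and that without DOX at −0.94.

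The called genes were also set beside the same contrast at other ages and without DOX. By edgeR, 0 of the 40 were called at P3 without DOX, where 126 genes were called (0.569%), and 0 of the 40 without the library against its label, where 307 genes were called (1.39%). With all libraries kept, 5 of the 40 had an unadjusted p below 0.05 at P3 without DOX, and 12 had the same sign. At P1 with DOX, where 14.8% of all genes were called, 12 of the 40 were called, 3 in the same and 9 in the opposite direction. At P7 (0.569% called) 3 were called, Bhlhe40 and Socs3 in the same and Gm15772 in the opposite direction. At P10 (0.0858%) only Reg3g was called, at 1.35, and at P14 (0.199%) only Lgals3bp, at 0.95, both opposite to P3. Spp1 was called lower at P1 too, with 34.2 ± 8.72 CPM in ectopicFzd1 and 102 ± 29.0 CPM in control (SD, n = 3 each) and a log2 fold change of −1.58 (edgeR adjusted p = 0.00212). Hist1h1c, Hist1h1e and Txnip, which were higher at P3, were called lower at P1, with log2 fold changes of −0.95, −1.16 and −1.11.

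**Figure D4:**
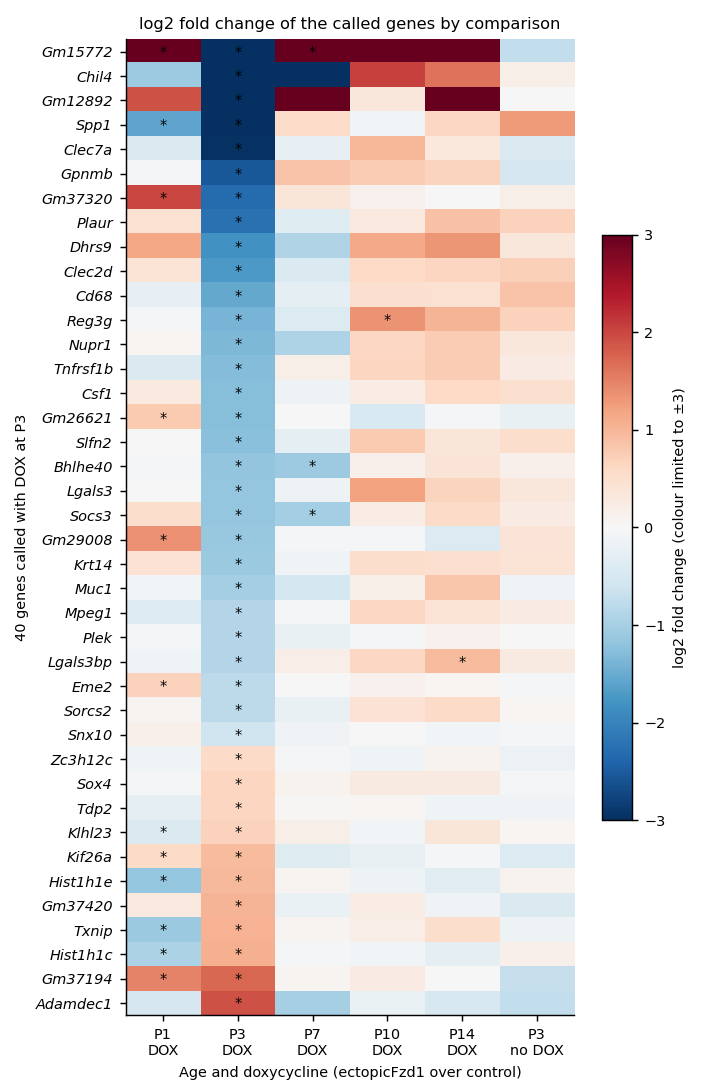
Colour gives the log2 fold change of ectopicFzd1 over control for the 40 genes called with DOX at P3 (rows) at P1 to P14 with DOX and at P3 without DOX (columns), limited to ±3; stars mark adjusted p below 0.05. The P3 column chose the rows, 12 genes carry a star at P1 and none at P3 without DOX.

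The difference between P3 and the other ages with DOX was tested directly. The P3 effect minus the mean effect at P1, P7, P10 and P14 was called for 210 genes (0.948%), 55 higher (0.248%) and 155 lower (0.7%). The library labelled control with DOX at P7 replicate 1 had Fzd1 at 3.45 CPM and went against its label, and without it 188 genes were called (0.849%). The count was 51 and 96 without ectopicFzd1 replicates 3 and 2 at P3, 59 without control replicate 3 at P3, and 10 with the 3 ectopicFzd1 libraries at P3 summed. Of the 40 genes called at P3, 35 were called for this difference, all in the same direction, and also 35 without that control library; the same P3 libraries enter both contrasts. It was −3.52 for Spp1 (edgeR adjusted p = 6.75e-06), −3.11 for Clec7a (3.55e-05), −1.53 for Csf1 (1.51e-05) and −1.64 for Cd68 (0.000149). Kcnj16, a potassium channel gene, was at 16, 9.28 and 12.3 CPM in ectopicFzd1 and 19.9, 22.4 and 35.8 CPM in control at P3, not called there (edgeR adjusted p = 0.0713), with a difference of −1.74 (edgeR adjusted p = 0.000272). Against P3 without DOX, Spp1 differed by −4.92, Cd68 by −2.41, Csf1 by −1.78 and Clec2d by −2.43, all past the threshold, and Clec7a by −2.51, not past it (edgeR adjusted p = 0.0642). Without the ectopicFzd1 library that went against its label, these differences were −4.88, −2.23, −1.83 and −2.53, and −2.52 for Clec7a, then past the threshold (edgeR adjusted p = 0.0403).

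Group means showed where the levels of both lines lay among the 25 groups, gene by gene. The genes were chosen because 2 of these means differed. Clec7a was at 11.6 ± 3.92 CPM in control with DOX at P3, above every other group, and at 1.47 ± 0.431 CPM in ectopicFzd1 with DOX at P3, below every other group (SD, n = 3 each). Csf1 was highest of all groups in control with DOX at P3, at 21.2 ± 3.39 CPM, and lay at 8.69 ± 1.66 CPM in ectopicFzd1 (SD, n = 3 each). Gpnmb was at 2.65 ± 1.64 CPM in ectopicFzd1 (SD, n = 3), within the 2.02 to 4.82 CPM of the ectopicFzd1 means at the other ages with DOX and at P3 without it, and at 14.7 ± 7.76 CPM in control (SD, n = 3). Its control means elsewhere in these comparisons lay between 2.21 and 2.98 CPM. Cd68 was at 3.97 CPM in ectopicFzd1, ranked 23 of 25, and at 11.6 CPM in control, ranked 2, while control without DOX at P3 had the lowest mean, 3.51 CPM. Spp1 was at 8.19 ± 5.12 CPM in ectopicFzd1 (SD, n = 3), ranked 24 of 25, and at 96.2 ± 62.3 CPM in control (SD, n = 3), ranked 16, while control without DOX at P3 was at 21.3 CPM, ranked 21.

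**Figure D5:**
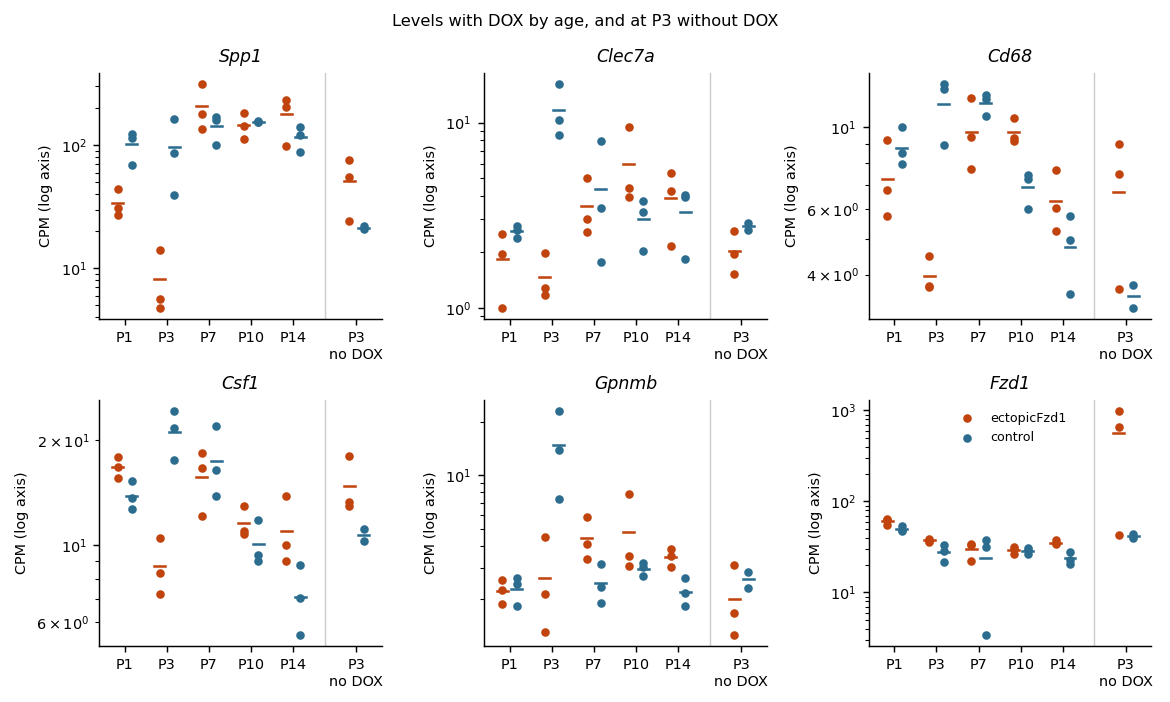
CPM on log axes per library (points) and group means (lines) for 6 genes in ectopicFzd1 (red, left) and control (blue, right) at P1 to P14 with DOX and, behind the grey line, at P3 without DOX. At P3 with DOX, Spp1, Clec7a, Cd68, Csf1 and Gpnmb separate without overlap; Fzd1 reaches 559 CPM on average only in ectopicFzd1 without DOX.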

How the data were processed

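Total RNA of olfactory epithelium was extracted with TRIzol and made into stranded, ribosomal RNA-depleted libraries, per the labels' protocols. Per the submitters' processing notes, the authors used bcl2fastq 2.18, STAR 2.6.1c and RSEM with the mouse build mm10. Whole-number counts of reads per gene make up the deposited table used for the tests, and the deposited TPM values were scaled for length by the authors. The annotation they used, and whether counting used strand, is not given in the sources used here, so antisense, overlapping and near-identical genes are uncertain. Of all reads, 19.5% to 30.2% were assigned to genes in the 6 libraries, and the totals outside genes were left out.

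Counts of all 72 libraries were fitted in R 4.3.3 with edgeR 4.0.16 (filterByExpr, 22144 of 54532 genes kept; TMM; 1 term per group; quasi-likelihood test; Benjamini-Hochberg adjustment over all genes, threshold 0.05), and the SE is that of the log2 fold change. CPM use TMM-scaled library sizes. The level of Fzd1 and the percent in odorant receptor genes were tested by exact permutation. Positions come from GENCODE M21, to which 54495 IDs matched. On simulated data for the P3 comparison over 22144 genes, edgeR recovered 7.46%, 56.7% and 83.3% of genes changed by 0.5, 1 and 2 on the log2 scale, with 3 unchanged genes called. Changed genes had a log2 mean CPM above 0, every gene had the spread of the trend, and libraries were drawn independently. These rates thus do not cover lower genes, a spread particular to a gene, or libraries of 1 animal. Alternatives used DESeq2 1.42.0 and limma 3.58.1.

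Named genes are Fzd1, Omp, the 12 largest rises and falls among called genes (average log2 CPM above 0, no clone names or odorant receptors; 9 rises qualified) and the 6 smallest p of each difference. The comparison, gene lists and rule were chosen with earlier results of these data known.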

Additional observations from a re-analysis of the deposited data

Results flagged for a closer look

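Results here are those whose ectopic effect differed between conditions by a direct test, edgeR's quasi-likelihood test of the difference with Benjamini-Hochberg adjustment over all genes. All values are differences of log2 fold changes, and all pass 0.05.

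The effect with DOX at P3 differed from the effect without DOX at P3 in Csf1 (−1.78), Cd68 (−2.41), Kif26a (1.37), Adamdec1 (2.65), Spp1 (−4.92), Reg3g (−2.07), Clec2d (−2.43), Fzd1 (−3.34), Kcnj16 (−1.68) and OR5BS1P (2.79). Kcnj16 was not called with DOX at P3, and OR5BS1P, a gene symbol of the odorant receptor type, was at 5.46, 6.72 and 6.46 CPM in ectopicFzd1 and 5.17, 3.17 and 3.97 CPM in control there (edgeR adjusted p = 0.753). The comparison without DOX rests on 2 control libraries and on 1 ectopicFzd1 library that went against its label, without which all 10 were still past the threshold. Only 3 of the 10 were past it without ectopicFzd1 without DOX replicate 2, without control without DOX replicate 1 or without ectopicFzd1 with DOX replicate 3, 5 without control without DOX replicate 2, and 0 in a fit of only the groups compared.

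The effect with DOX at P3 differed from the mean effect at P1, P7, P10 and P14 with DOX in Csf1 (−1.53), Cd68 (−1.64), Kif26a (0.95), Adamdec1 (2.46), Dhrs9 (−2.5), Tnfrsf1b (−1.59), Spp1 (−3.52), Gpnmb (−3.09), Reg3g (−1.86), Clec2d (−2.03), Nupr1 (−1.47), Zc3h12c (0.61), Tdp2 (0.72), Hist1h1c (1.41), Txnip (1.1), Klhl23 (0.69), Plaur (−2.55), Kcnj16 (−1.74), Hist1h1e (1.37), Omp (4.05) and Clec7a (−3.11). Omp was at 30.1 CPM in control at P3 and at 222 to 1296 CPM in control at the other ages. Of these 21 genes, 12 were past the threshold without ectopicFzd1 replicate 3 at P3 and 8 with the 3 ectopicFzd1 libraries at P3 summed to 1.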

How the results depend on the processing

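All 40 called genes kept their direction under every alternative with a value. They were chosen on the same libraries, so a kept direction is no separate support. Of the 40, 23 were still called in a fit of only the groups compared and 12 by limma on log2(TPM + 1). The number called, 40, was 75 with DESeq2, which held all 40, 151 without the filter, 86 with the Gm10800-type percent as a covariate, 18 without the Gm10800-type genes, 2 by limma on log2(TPM + 0.1), 6 with ectopicFzd1 replicates 2 and 3 summed to 1 library and 5 with all 3 summed, and 6 to 29 without 1 library. For the difference from P3 without DOX (53) these were 105, 272, 170, 37, 1, 17 and 7, and 3 to 307 without 1 library, with 12 by limma on log2(TPM + 1) and 0 in a fit of only the groups compared. For P3 minus the other ages (210) they were 349, 351, 394, 165, 15, 89 and 10, and 51 to 248 without 1 library, with 56 by limma on log2(TPM + 1), 363 in a fit of only the groups compared, and 136 over P7, P10 and P14 only, chosen after seeing the data. Omp, −0.09, ran from −0.232 to 0.0636 without 1 library and reversed without control replicate 1. The cause of these shifts was not tested, beyond fewer samples in the summed fits and those without 1 library. Summing assumes that the single ectopicFzd1 library varies like the other groups. The level of Fzd1 differed by 0.26 to 0.57 and the odorant receptor percent by 0.0182 to 0.0625 without 1 library. Genes changed by 0.5 are mostly missed at this depth. No paired analysis was possible because the titles carry no replicate numbers.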

Other observations

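The summed levels of other lists follow. These lists were picked after their values were seen and carry no test. Immature olfactory neuron genes summed to 1412, 1251 and 1388 TPM in ectopicFzd1 and to 1122, 1149 and 1161 TPM in control, with 16 of 18 above 0 and a median log2 fold change of 0.10. Microvillar cell and ionocyte genes summed to 114 to 123 TPM in ectopicFzd1 and to 76.8 to 91.3 TPM in control. Genes of the glucocorticoid and fasting response summed to 481 to 606 TPM in ectopicFzd1 and to 250 to 467 TPM in control. Txnip was the called member of that list, and the metallothionein genes Mt1 and Mt2, at 0.74 and 0.94, were higher at an unadjusted p below 0.05. Cartilage genes, at 53.3 to 68.5 TPM in ectopicFzd1 and 37.2 to 56.4 TPM in control, overlapped, with a median log2 fold change of 0.35.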
